A study of Bos taurus with 30 samples.

Results

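The genes described here mark the progenitors of blood and of blood vessel lining (endothelium) in early mammalian embryos, or, for VEGFA, code for a signal to them. They are 10 of the 35092 gene IDs in the deposited count table, found by matching Entrez gene IDs to cattle symbols. They were chosen by their counts in these discs, being proposed with the lower values of most of them in IVP discs already known. They are 4 transcription regulators (FLI1, ETV2, TAL1 and LMO2), 3 receptors (KDR, TEK and APLNR), the ligand VEGFA, and the surface proteins CD34 and CDH5. All 10 had a row, and 9 had enough counts for a test in at least 1 comparison. CDH5 did not.

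The study asked what in vitro procedures change in the elongated bovine embryo, and it compared Holstein embryos at day 15 that were made in vitro (IVP) or conceived in the cow (IVV). For IVP, oocytes from slaughterhouse ovaries were matured and fertilized in the laboratory, grown without serum and placed in recipient cows. For IVV, donors were superovulated and inseminated, and semen of the same bull served both procedures. The embryonic disc (ED), which forms the body of the embryo, and a piece of the surrounding extra-embryonic membranes (EEM) were sequenced, in 7 IVP and 9 IVV discs and in 6 IVP and 8 IVV membrane pieces. Both tissues came from 5 IVP and 8 IVV embryos. Embryos with no visible disc had been discarded, and the kind of cow and the procedure cannot be told apart. Each procedure used only a few cows, so embryos share cows, the cow of each embryo is not given in the sources used here, and p-values take embryos as independent. Labels give neither the sex nor the shape of an embryo.

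In mammals, the first blood and endothelial cells arise from mesoderm, the layer formed by cells that leave the epiblast through the primitive streak. Mesoderm cells that take this path switch on the ETS factor ETV2 for a short time, and ETV2 together with TAL1, LMO2 and FLI1 turns on the surface proteins of the lineage. KDR, the main receptor of VEGFA, marks these cells early, while TEK, CD34 and the junction cadherin CDH5 mark cells that go on to line vessels.

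Libraries held 48713218 to 63037371 counts. The tissue labels matched the disc marker POU5F1, which ran from 16.4 to 228 counts scaled to library size (CPM) in discs and from 0.419 to 2.43 CPM in membranes. NANOG was likewise higher in discs, while SOX2 had 0 counts in every library. The whole list of 6 disc markers summed to 193.6 to 497.8 CPM in IVP discs and to 94.4 to 207.9 CPM in IVP membranes. These ranges overlapped, and in IVP11 the disc held 205.5 CPM and the membranes 207.9 CPM. In IVV embryos the list summed to 174.0 to 906.7 CPM in discs and to 84.3 to 138.9 CPM in membranes. The trophoblast list summed to 7357 to 35544 CPM in IVP discs and to 17066 to 28721 CPM in IVV discs, so trophoblast transcripts were plentiful in the disc samples too. XIST, the RNA that silences an X chromosome in female cells, was under 1 CPM in all 7 IVP discs and in 2 IVV discs (VE3 and VE5), and ran from 45.1 to 150.2 CPM in the other 7 IVV discs. XIST therefore moved with the procedure. The disc of the IVV embryo VE19 stood apart for several of the genes below, and values without it are given where they matter.

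Between the procedures, the plainer contrast lay in the discs. FLI1, KDR, CD34, APLNR and LMO2 were all far lower in IVP than in IVV discs, whereas the ranges of ETV2 and VEGFA overlapped. The genes were proposed with this comparison known, so its values are a description with no test. In these bulk samples, fewer cells of a type and less RNA per cell cannot be told apart. At an adjusted p under 0.05, 5 of the 9 members that passed the filter were called lower and 0 higher, where 6.34% of all 15733 genes were called (4.95% lower and 1.40% higher). Nothing is read from this count, since these values chose the members, and FLI1 and CD34 passed the filter only through the IVV discs. Their median log2 fold change was -2.98, beside -0.01 over all genes.

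Among the transcription regulators, FLI1, an ETS factor of blood and endothelium, had 0 counts in 5 IVP discs and at most 1 count in the other 2. In IVV discs FLI1 ran from 0.121 CPM through a median of 2.63 to 7.66 CPM. The groups did not overlap, and FLI1 was at least 53.7-fold lower in IVP discs, measured against the floor of 3 counts (0.0552 CPM). The lowest IVV disc, VE19, held 6 counts, and the next IVV disc held 1.72 CPM.

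LMO2, a bridging protein that joins TAL1 to its partners on DNA, ran from 0.111 CPM through 0.317 to 0.708 CPM in IVP discs. In IVV discs LMO2 ran from 0.726 CPM through 2.54 to 5.93 CPM. The highest IVP disc and the lowest IVV disc, VE19, lay next to each other without overlap, and the log2 fold change was -2.98 (SE 0.44).

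TAL1, a factor needed for the first blood cells, was at 0 counts in 3 IVP discs, with a median of 0.130 and a highest value of 0.501 CPM. In IVV discs TAL1 spanned 0.0164 to 1.31 CPM with a median of 0.381 CPM. The groups overlapped, since the IVV discs of VE3 and VE4 held 1 count each, and the log2 fold change was -2.14 (SE 0.88).

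ETV2, which stands at the top of this cascade, ran from 0.704 CPM through 2.05 to 3.35 CPM in IVP discs and from 1.58 CPM through 1.99 to 4.55 CPM in IVV discs. Its ranges overlapped over most of their length, and the IVP median was the higher. The fitted log2 fold change of ETV2 was -0.66 (SE 0.33).

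Of the receptors, KDR ran from 0 through 0.449 to 0.638 CPM in IVP discs and from 0.706 CPM through 13.04 to 33.2 CPM in IVV discs. Only VE19 among IVV discs came near the IVP range, and all others held at least 5.73 CPM. The log2 fold change of KDR was -5.10 (SE 0.63), and -5.22 (SE 0.54) without VE19.

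APLNR, the receptor of the peptides apelin and ELA that guides early mesoderm cells, ran from 0 through 0.128 to 0.726 CPM in IVP discs. In IVV discs APLNR ran from 0.202 CPM through 12.5 to 31.2 CPM. The groups overlapped through VE19 alone, whose 10 counts fell inside the IVP range, and the log2 fold change was -6.58 (SE 0.76).

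TEK, the angiopoietin receptor, behaved otherwise. It was counted in every IVP disc, from 0.397 CPM through 0.790 to 1.45 CPM, and ran from 0.0202 CPM through 1.52 to 3.85 CPM in IVV discs. The lowest value of either group belonged to VE19, with 1 count, and the log2 fold change of TEK was -1.05 (SE 0.56).

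VEGFA, the growth factor that binds KDR, ran from 3.99 CPM through 39.4 to 138 CPM in IVP discs and from 37.3 CPM through 65.1 to 81.0 CPM in IVV discs. The IVV discs lay within the IVP range. In IVP discs VEGFA was 3.99 CPM in IVPF13 and 4.30 CPM in IVPF14, with all of the other 5 higher. The log2 fold change was -0.18 (SE 0.51), it turned to 0.063 without IVPF13 and to 0.086 without IVPF14, and it was -1.16 with limma voom.

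CD34, a surface sialomucin of blood and vessel progenitors, had 1 count in 1 IVP disc and 0 in the other 6. In IVV discs CD34 ran from 0.202 CPM through 0.415 to 1.67 CPM, or 10 to 93 counts. The groups did not overlap, and CD34 was at least 11.9-fold lower in IVP discs. CDH5, the cadherin of endothelial junctions, held 0 to 8 counts in the discs of both groups, with a median of 0 counts in IVP and 2 in IVV discs, and no difference was detectable at this depth.

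**Figure D1:**
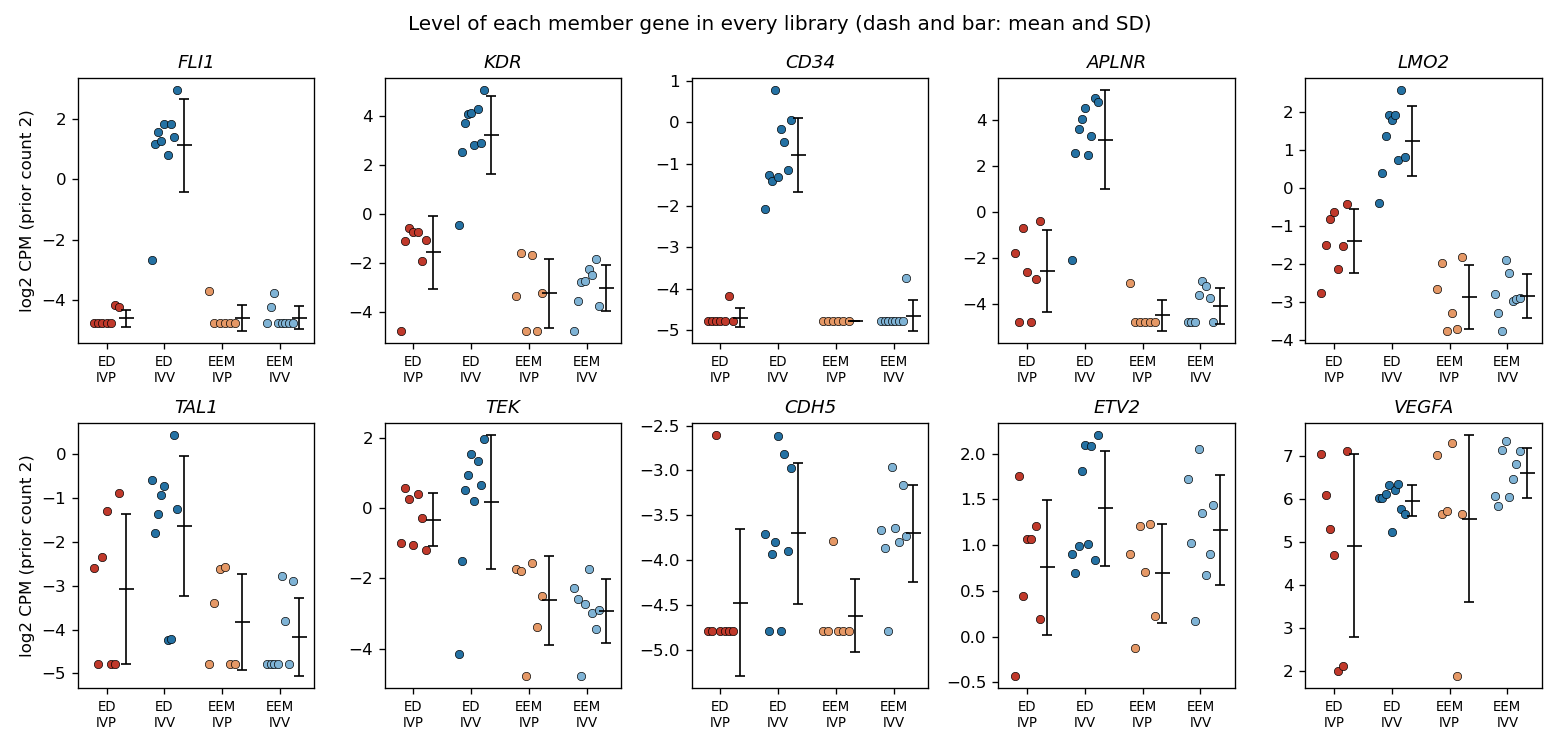
Level of each of the 10 genes in every library, as log2 CPM with a prior count of 2, for IVP (red and orange) and IVV (dark and light blue) ED and EEM, with each point a library and the dash and bar the mean and SD. The vertical axes differ between genes. FLI1, KDR, CD34, APLNR and LMO2 stand high only in IVV discs, with VE19 as the lowest dark blue point, while ETV2 and VEGFA overlap in all 4 groups.

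XIST moved with the procedure, and 2 IVV discs had little of it. VE3 and VE5, the IVV discs under 1 CPM of XIST, held 1.72 and 2.63 CPM of FLI1, above every IVP disc. They also held 6.96 and 7.50 CPM of KDR, and 5.57 and 31.2 CPM of APLNR. CD34 was 0.854 and 0.415 CPM in these discs, and LMO2 was 3.79 and 5.93 CPM. All of these values lay above the highest IVP disc of the same gene. With the log2 CPM of XIST as a covariate, the log2 fold change was -4.20 for KDR, -6.11 for APLNR and -3.59 for LMO2. The part of XIST in the differences was not tested further, and these are values of the comparison from which the genes were chosen.

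Markers of adult blood cells also moved with the groups. Their list of 10 genes summed to 1.52 to 5.34 CPM in IVP discs and to 6.11 to 15.1 CPM in IVV discs, and 2 of its 3 genes that passed the filter (ITGB2 and CD74) were called lower in IVP discs. PTPRC, the surface protein of white blood cells, had 0 counts in every IVP disc and 0 to 64 in IVV discs. HBB, the adult globin, had 0 counts in all 9 IVV discs, as did S100A12. The globin HBA went the other way, at 0 to 21 counts in IVP discs and at most 1 in IVV discs. The list of mature endothelium (5 genes) summed to 3.30 to 12.7 CPM in IVP and 1.82 to 7.94 CPM in IVV discs, and 0 of its 2 tested genes were called. The part of the blood markers in the differences was not tested.

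Within the 9 IVV discs the members did not all follow each other. FLI1, KDR and TEK ranked the discs in nearly the same order, with VE19 lowest and VE6 highest for each of the 3 genes. TAL1 followed another order, highest in VE5 and lowest in VE3 and VE4. VE19 was not low for TAL1 (0.625 CPM) or for ETV2 (1.84 CPM), and its KDR (35 counts) and LMO2 (36 counts) lay above every IVP disc in CPM. CD34 was highest in VE28, at 1.67 CPM.

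**Figure D2:**
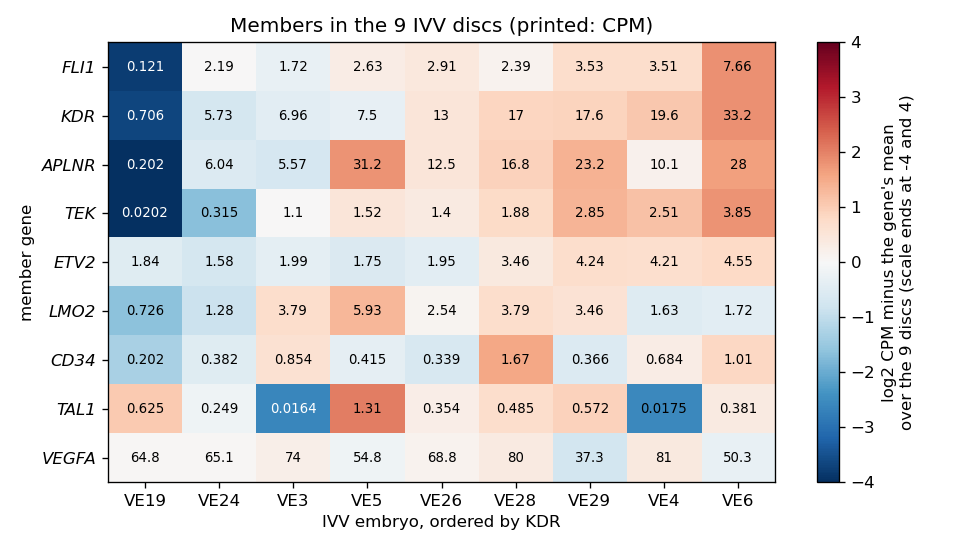
The 9 members with enough counts in the 9 IVV discs, with the colour giving log2 CPM (prior count 2) minus the mean of the gene over these discs and the printed number the CPM, and discs run from the lowest to the highest KDR. FLI1, KDR, CD34, APLNR, LMO2 and TEK are lowest in VE19, while TAL1, ETV2 and VEGFA are not.

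Each pair of the 9 members with enough counts was correlated over the 9 IVV discs, on log2 CPM, a comparison chosen after the values were seen. Of 36 pairs, 5 passed the adjusted threshold by Pearson's r, 5 by Spearman's rho and 3 by both, in two-sided exact permutation tests with Benjamini-Hochberg adjustment. KDR and TEK gave r = 0.96 (exact permutation p = 3.6e-05, adjusted p = 0.00129) and rho = 0.97 (exact permutation p = 0.000165, adjusted p = 0.00595). Without the 2 discs farthest from the KDR median r was 0.83, and without VE19 it was 0.87. FLI1 and KDR gave r = 0.96 (exact permutation p = 0.000411, adjusted p = 0.00739) and rho = 0.92 (exact permutation p = 0.00131, adjusted p = 0.0157), with r = 0.75 without the 2 discs farthest from the FLI1 median and 0.84 without VE19. FLI1 and TEK gave r = 0.93 (exact permutation p = 0.00108, adjusted p = 0.013) and rho = 0.92 (exact permutation p = 0.00131, adjusted p = 0.0157), with r = 0.64 without those 2 discs and 0.71 without VE19.

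ETV2 differed little between groups, yet among the IVV discs it went with KDR in rank. Its rho with KDR was 0.87 (exact permutation p = 0.00451, adjusted p = 0.0406), while its r of 0.70 missed the threshold (exact permutation p = 0.0116, adjusted p = 0.0598). Without VE19 this r rose to 0.92. The 4 IVV discs richest in ETV2 (VE28, VE29, VE4 and VE6, from 3.46 to 4.55 CPM) were also the 4 richest in KDR, from 17.0 to 33.2 CPM.

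The level of TBXT, the T-box factor of the primitive streak, ran from 0.175 CPM in VE4 to 32.8 CPM in VE5 among the IVV discs. Of 9 members, 0 passed the adjusted threshold against TBXT by either measure, and 2 by r and 1 by rho had an unadjusted exact permutation p under 0.05. LMO2 came nearest, with r = 0.68 (exact permutation p = 0.0423, adjusted p = 0.215) and rho = 0.82 (exact permutation p = 0.0108, adjusted p = 0.0969). Leaving out VE4 and VE5 raised its r to 0.88. TAL1 gave r = 0.67 (exact permutation p = 0.0478, adjusted p = 0.215) and rho = 0.45 (exact permutation p = 0.23, adjusted p = 0.69), and its r fell to -0.00089 without the same 2 discs, so that relation rested on them. The r of other members rested on the same 2 discs too, and moved without them from 0.03 to 0.67 for KDR, from 0.12 to 0.57 for FLI1, from 0.12 to 0.69 for TEK from 0.38 to 0.73 for APLNR and from 0.03 to 0.52 for CD34. For ETV2 it turned from -0.32 to 0.41. VE4, with the least TBXT, held 19.6 CPM of KDR and 3.51 CPM of FLI1.

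In the membranes, most members were barely counted in either group. FLI1 and CD34 held at most 2 counts in any EEM library, APLNR and CDH5 at most 4, TAL1 at most 7, LMO2 and TEK at most 14 and KDR at most 15. Only ETV2 and VEGFA passed the filter for the comparison of IVP and IVV membranes, and 0 of the 2 were called by edgeR, DESeq2 or limma voom, where edgeR called 3.81% of 14718 genes. Neither had an unadjusted p under 0.05.

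ETV2 ran from 0.884 CPM through 1.71 to 2.30 CPM in IVP membranes and from 1.09 CPM through 2.25 to 4.12 CPM in IVV membranes, values like those of the discs. The log2 fold change was -0.38 (SE 0.32, adjusted p = 0.763 by the edgeR quasi-likelihood test). VEGFA ran from 3.63 CPM through 51.6 to 158 CPM in IVP membranes and from 57.1 CPM through 101 to 163 CPM in IVV membranes, with a log2 fold change of -0.51 (SE 0.44, adjusted p = 0.781) that was -1.07 with limma voom. The groups overlapped for both genes. By other tools and settings the adjusted p ran from 0.575 to 0.932 for ETV2 and from 0.447 to 0.981 for VEGFA. With 1 library left out, the adjusted p by edgeR ran from 0.568 to 0.972 for ETV2 and from 0.387 to 0.926 for VEGFA.

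VEGFA showed its widest differences between IVP embryos. IVPF14 was low in both tissues, at 4.30 CPM in the disc and 3.63 CPM in the membranes. IVPF13 was low in the disc alone, at 3.99 CPM, beside 158 CPM in its membranes. The disc and membranes of IVPF13 also deviated in opposite directions over all genes (r = -0.23, against 0.30 or more in the other 12 embryos). The level of VEGFA was set against 13 genes of the oxygen response in each tissue, a choice made after its values were seen. Of these 26 relations 0 passed the adjusted threshold, and 1 by r and 0 by rho had an unadjusted permutation p under 0.05 (lowest adjusted permutation p 0.638 for r and 0.528 for rho). These relations pool both procedures, and within them r could differ in sign, as for EGLN3 in discs (0.85 in 7 IVP and -0.36 in 9 IVV) and SLC2A1 in membranes (-0.69 in 6 IVP and 0.73 in 8 IVV). Within-procedure values were not tested.

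The disc and the membranes of the same embryo were compared with the embryo as a block. In IVV embryos 7 of the 9 members with enough counts were called higher in the disc, namely FLI1, KDR, CD34, APLNR, LMO2, TAL1 and TEK, where 15.6% of all 16784 genes were called higher and 22.1% called in either direction. Their median log2 fold change was 4.58, beside -0.10 over all genes. The comparison shares the IVV discs with the comparison of IVP and IVV discs. The members were chosen by those discs, and FLI1, CD34, APLNR and TAL1 reached the filter mainly through them. For that reason the members' values in IVV embryos are a description with no p, and nothing is read from their count. The 3 tested genes of the adult blood list were also higher in the disc of IVV embryos, and their part in the result was not tested.

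APLNR had a log2 fold change of 8.61 (SE 0.52) and KDR of 6.64 (SE 0.48). In all 8 IVV embryos the disc held more of each gene than the membranes. FLI1 and CD34, at the floor in IVV membranes, were at least 50.3-fold and 11.2-fold higher in the disc, again in 8 of 8 embryos.

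LMO2 followed with a log2 fold change of 4.58 (SE 0.42), higher in the disc of 8 of 8 embryos. TAL1 gave 3.90 (SE 0.92) and TEK 3.37 (SE 0.72), each higher in the disc of 7 of 8 embryos. For TEK the exception was VE19, and without this embryo its log2 fold change was 3.88 (SE 0.59). ETV2 was higher in the disc of 4 of 8 embryos, with a log2 fold change of 0.14 (SE 0.30). VEGFA leaned the other way, higher in the membranes of 7 of 8 embryos, with a log2 fold change of -0.60 (SE 0.38). In the fit without the IVP embryo IVPF13, which shares the estimate of the spread, its SE was 0.16.

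In IVP embryos 1 of 9 members, APLNR, was called higher in the disc, where 4.18% of genes were called higher and 4.83% in either direction. This comparison shares the IVP discs by which the members were chosen, so their values are again a description with no p, and nothing is read from the count. The members' median log2 fold change was 1.33, beside -0.07 over all genes, and with FLI1 and CD34 at the floor in both tissues no fold can be given for them. APLNR stood at 3.36 (SE 0.92) and was higher in the disc of 3 of 5 embryos. Its value rested on single embryos, at 6.29 without IVP10 and 2.05 without IVP14. The APLNR call held in 10 of 19 settings, and was lost with DESeq2, with limma voom and without the block.

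TEK was higher in the disc of all 5 IVP embryos, and the 7 IVP discs did not overlap with the 6 IVP membranes. Its log2 fold change was 2.67 (SE 0.84), beside 2.92 with DESeq2. KDR gave 1.64 (SE 0.63) and LMO2 1.56 (SE 0.55), each higher in the disc of 4 of 5 embryos. TAL1 stood at -0.38 (SE 1.20), ETV2 at -0.02 (SE 0.39) and VEGFA at -0.67 (SE 0.53), and VEGFA stood at 0.03 (SE 0.22) without IVPF13.

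**Figure D3:**
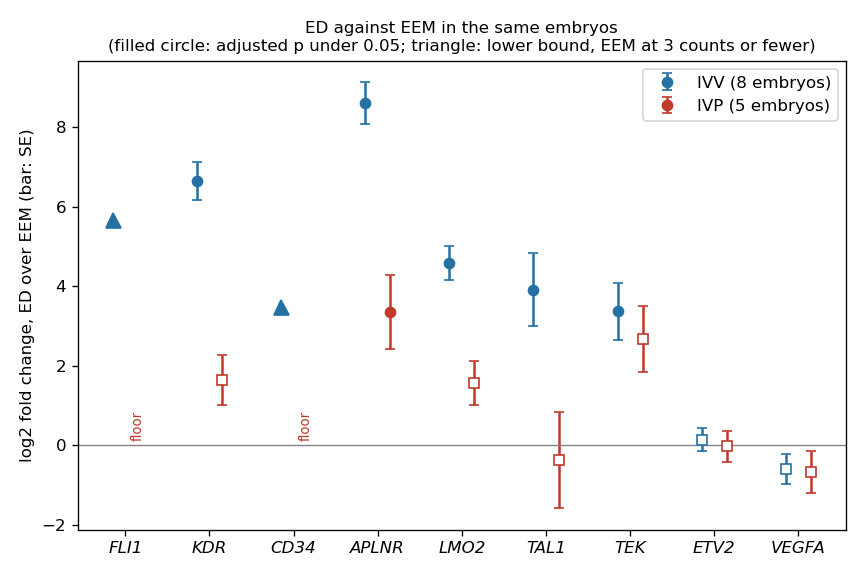
Log2 fold change of the disc over the membranes of the same embryo, with SE, for 9 members in 8 IVV (blue) and 5 IVP (red) embryos. Filled circles had an adjusted p under 0.05 and open squares did not. Nothing is read from these marks, since the members were chosen by these discs. Triangles are lower bounds where the membranes were at the floor, and "floor" marks genes at the floor in both tissues. TEK lies at 3.37 in IVV and 2.67 in IVP embryos, while KDR lies at 6.64 and 1.64.

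The difference between these tissue effects, IVP minus IVV, holds the disc comparison and is given for the members with no test. Of 9 members 2, KDR and LMO2, were called lower and 0 higher, where 1.02% of all genes were called (0.918% lower and 0.107% higher), and nothing is read from this count. KDR had a difference of -5.00 (SE 0.86) and LMO2 of -3.02 (SE 0.72) on the log2 scale, and APLNR had one of -5.25 with a wider error (SE 1.67). For TEK the difference was -0.70 (SE 1.10), for ETV2 -0.17 (SE 0.49) and for VEGFA -0.07 (SE 0.65).

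Other genes were read from 7 lists with 102 genes, of which 101 had a row. Like the members, the lists were chosen with earlier results of these data known, so their counts are no independent evidence. The lists cover blood and endothelial genes, and also early mesoderm and the oxygen response. In the discs 15 of the 77 tested genes were called lower in IVP (4.95% of all genes were) and 3 higher (1.40%), and the median log2 fold change was -0.10. With XIST as a covariate the counts were 9 and 0. Most of the lower genes belonged to the list of early mesoderm, with 8 of 10 called lower and a median of -1.98. These 8 were TBXT, MESP1, EOMES, MIXL1, FOXF1, TBX6, BMP4 and SNAI2.

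TBXT fell by 3.92 on the log2 scale (SE 0.90, adjusted p = 0.00901 by the edgeR quasi-likelihood test). FOXF1, a factor of lateral mesoderm, fell by 3.75 (SE 0.68, adjusted p = 0.00154). BMP4, a signal that mesoderm needs, fell by 1.74 (SE 0.27, adjusted p = 0.000241), MIXL1 by 2.21 (SE 0.36, adjusted p = 0.000474) and MESP1 by 1.94 (SE 0.39, adjusted p = 0.00373). The calls for TBXT, FOXF1, BMP4, MIXL1, MESP1 and TBX6 held in each of the 27 other settings, and EOMES lost its call in 1 of them and SNAI2 in 2.

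Among the 17 tested endothelial surface genes, PLVAP and NOTCH1 were lower and ESAM higher in IVP discs. PLVAP, a protein of vessel fenestrae, ran from 0 to 0.212 CPM in IVP discs and from 0.415 to 3.12 CPM in IVV discs, and fell by 3.49 on the log2 scale (SE 0.58, adjusted p = 0.000629), a call kept in all 26 settings that tested it. Over the other tools, settings and covariates its log2 fold change ran from -4.02 to -2.28, with adjusted p up to 0.049. NOTCH1 fell by 1.60 (SE 0.42, adjusted p = 0.0228, called in 22 of 27 settings). The ESAM call (1.20, SE 0.36, adjusted p = 0.0444) held in 12 of 27 settings. PECAM1, an adhesion protein of endothelium, had a log2 fold change of 0.52 (SE 0.37, adjusted p = 0.524), and EGFL7 of -0.56 (SE 0.33, adjusted p = 0.399).

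Of 12 tested endothelial transcription factors, KLF2 and SOX7 were lower and SOX18 higher in IVP discs, with a list median of 0.16. KLF2, a flow-responsive factor of vessels, fell by 2.40 (SE 0.61, adjusted p = 0.0181) and SOX18 rose by 1.97 (SE 0.49, adjusted p = 0.0159). With XIST as a covariate both calls were lost, though KLF2 stood at -2.18 (adjusted p = 0.0749) and SOX18 at 2.21 (adjusted p = 0.151). SOX18 was also not called with limma voom (adjusted p = 0.174), in the 13 embryos with both tissues (0.143) or without IVP11 (0.0844). The SOX7 call (-1.24, adjusted p = 0.0421) held in 14 of 27 settings. ERG, a partner of FLI1 in endothelium, had at most 1 count in any IVP disc and 0 to 41 counts in IVV discs, too few for a test. ETS1 (0.19, SE 0.35), GATA2 (0.48, SE 0.37) and HHEX (-1.04, SE 0.38) were not called (HHEX was with DESeq2 and without VE4), and GATA2 is also abundant in trophoblast.

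In the blood lists few genes had enough counts for a test. Of 8 tested blood transcription factors 1 was called, RUNX1, which was higher in IVP discs (0.90, SE 0.25, adjusted p = 0.0348, held in 13 of 27 settings). GATA1, the red cell factor, had at most 1 count in any IVP disc and 0 to 20 in IVV discs, and was at least 2.19-fold lower in IVP discs by the group mean. SPI1 gave 0.29 (SE 0.40, adjusted p = 0.796). Of 7 tested blood surface genes 1, GYPC, was lower (-1.75, SE 0.48, adjusted p = 0.0285). The GYPC call held in 17 of 27 settings, and with XIST as a covariate its value was -0.95 (adjusted p = 0.684). KIT was -0.00 (SE 0.21). PTPRC, also on this list, was at least 3.80-fold lower in IVP discs by the group mean. For both PTPRC and GATA1 the range of IVV discs began at 0 counts.

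In the system of VEGF, angiopoietins and apelin, 2 of 10 tested genes were lower in IVP discs. They were NRP1, a coreceptor of VEGF (-1.27, SE 0.35, adjusted p = 0.0307), and the ligand PGF (-1.86, SE 0.50, adjusted p = 0.0266), held in 14 of 27 and 17 of 25 settings. FLT1, the other VEGFA receptor, was 33.5 CPM at the median in IVV and 40.5 CPM in IVP discs, with a log2 fold change of 0.27 (SE 0.27, adjusted p = 0.705). TIE1 gave 0.46 (SE 0.37), and the apelin ligands gave -0.79 (APLN, SE 0.34) and -1.09 (APELA, SE 0.39), none of them called, though APELA was with DESeq2 and without VE5. Of 13 oxygen response genes 0 were called by edgeR, with HIF1A at 0.29 (SE 0.32) and SLC2A1 at 0.22 (SE 0.22). In this list 1 gene, LDHA, had an unadjusted edgeR p under 0.05, and the list median was 0.20. HIF1A and SLC2A1 were not called in any of 27 settings.

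**Figure D4:**
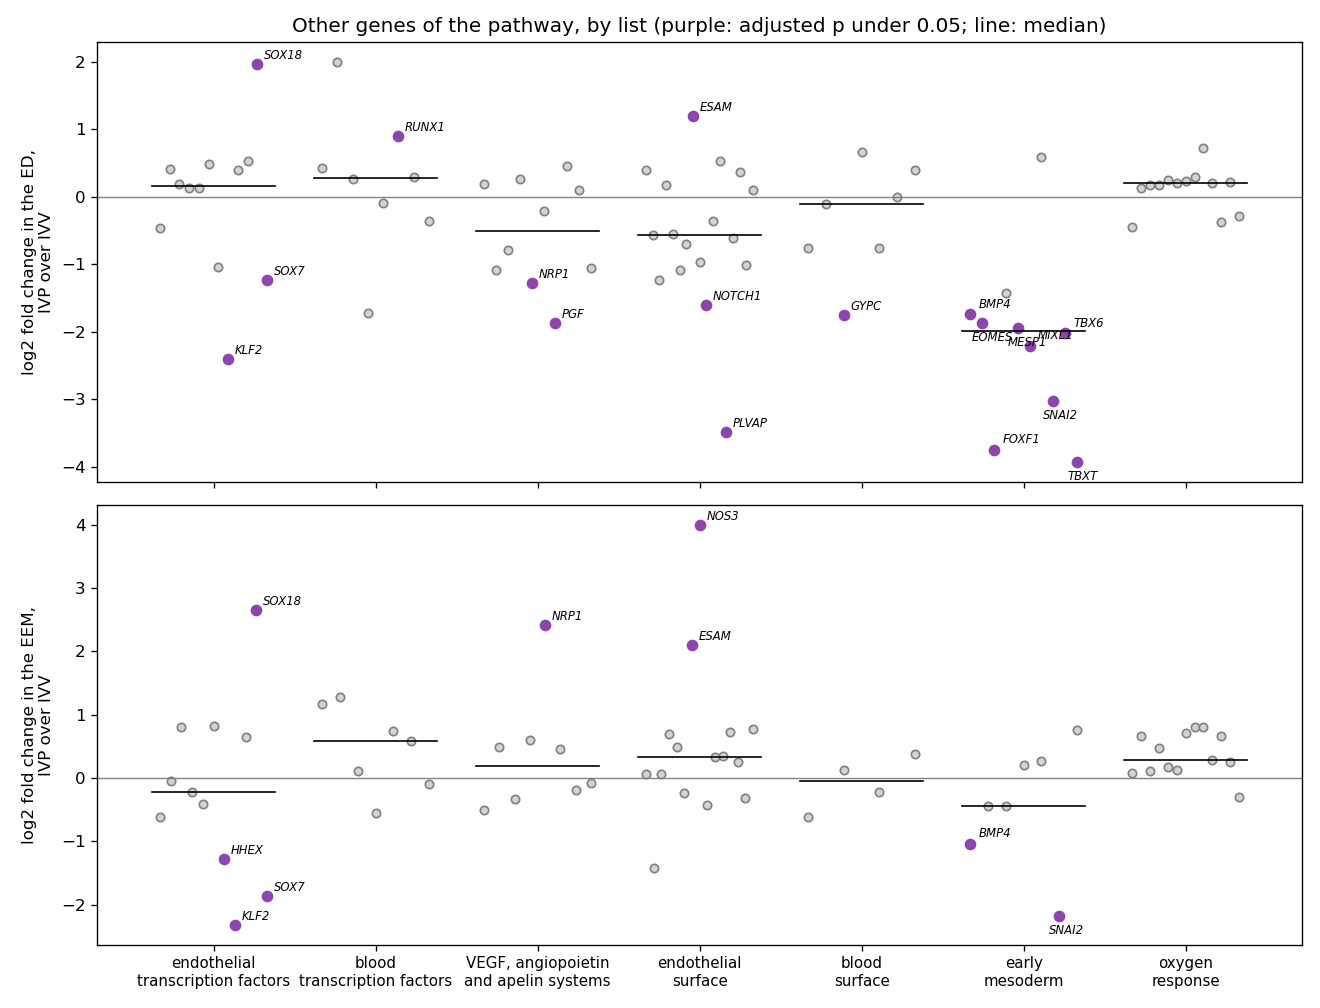
Log2 fold change of IVP over IVV for the other genes of the 7 lists that passed the filter, in the ED (upper) and the EEM (lower), with each point a gene, purple where the adjusted p was under 0.05, and the line the median of the list. In the discs the early mesoderm list lies lowest, with a median of -1.98, while SOX18 and ESAM are called higher and KLF2 and SOX7 lower in both tissues.

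In the membranes 5 of 65 tested list genes were called lower in IVP and 4 higher, where 1.52% and 2.29% of all genes were, and the median was 0.21 beside 0.00 over all genes. With XIST as a covariate these counts were 1 and 2. NOS3, the nitric oxide synthase of endothelium, rose by 3.99 (SE 0.57, adjusted p = 1e-04), from 0 to 0.299 CPM in IVV to 0.235 to 0.698 CPM in IVP membranes. It kept its call in all 23 settings that tested it, though its log2 fold change ran from 2.74 to 5.57 over other tools and settings. SOX18 (2.65, SE 0.39, adjusted p = 0.000146), NRP1 (2.42, SE 0.44, adjusted p = 0.00124) and ESAM (2.11, SE 0.34, adjusted p = 0.000356) rose too. SOX7 (-1.85, SE 0.38, adjusted p = 0.00457), KLF2 (-2.31, SE 0.49, adjusted p = 0.00577) and HHEX (-1.28, SE 0.36, adjusted p = 0.0444) fell, as did SNAI2 and BMP4. NRP1, ESAM, SOX7 and KLF2 lost their calls with XIST as a covariate, where they stood at 1.503, 1.29, -1.59 and -2.65. SOX18 lost its call with no surrogate variable (1.74, adjusted p = 0.114), while HHEX held in 9 of 25 settings, BMP4 in 10 of 25 and SNAI2 in 11 of 17.

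Between the tissues of IVV embryos 29 of 81 list genes were higher in the disc and 1, ETS2, lower, where 15.6% and 6.55% of all genes were. The list median was 0.35. Those with a part in the VEGF and apelin systems were NRP1 (3.96, SE 0.32, adjusted p = 2.83e-08), NRP2 (3.51, SE 0.34, adjusted p = 3.13e-07), the apelin receptor ligand APELA (3.83, SE 0.41, adjusted p = 9.86e-07), VEGFC and its receptor FLT4. VEGFC and FLT4, at the floor in IVV membranes, were at least 4.05-fold and 4.81-fold higher in the disc. FLT1 (0.39, SE 0.15, adjusted p = 0.0736), TIE1, APLN and PGF were not called, though FLT1 was with DESeq2 and without IVP11, and PGF was without VE19.

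Of 18 tested endothelial surface genes 9 were higher in IVV discs than in their membranes, led by RAMP2 (2.18, SE 0.22, adjusted p = 3.37e-07), NOTCH1 (3.27, SE 0.38, adjusted p = 2.22e-06) and PLVAP (4.23, SE 0.61, adjusted p = 2.85e-05). PECAM1 was not among them (-0.44, SE 0.22, adjusted p = 0.169). Among blood genes MYB (4.52, SE 0.59, adjusted p = 1.3e-05) and the heme enzyme ALAS2 (2.55, SE 0.45, adjusted p = 0.000295) were higher, and GYPC was at least 32.5-fold higher. RUNX1 (0.00, SE 0.15) and SPI1 (0.01, SE 0.25) were not called.

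In IVP embryos 11 of the 81 were higher in the disc and 2, KLF2 and ESAM, lower, where 4.18% and 0.649% of all genes were, and the list median was 0.05. The KLF2 call held in 16 and the ESAM call in 10 of 19 settings. NRP2 (2.80, SE 0.43, adjusted p = 0.000418), APELA (2.48, SE 0.49, adjusted p = 0.00386) and NOTCH1 (2.04, SE 0.47, adjusted p = 0.0117) were higher as in IVV embryos, and NRP1 was not called (0.35, SE 0.35, adjusted p = 0.683). The difference between the procedures in the tissue effect was tested for the list genes, and 4 of 81 passed, all lower in IVP, beside the 0.918% of all genes. They were NRP1 (-3.62, SE 0.47, adjusted p = 0.000475), GYPC (at least 28.3-fold higher in IVP than in IVV membranes, where it was at the floor), MIXL1 (-2.45, SE 0.44, adjusted p = 0.00744) and TBX6 (-2.51, SE 0.51, adjusted p = 0.0166). The TBX6 call was lost without IVP10, IVP14 or IVPF14. In the comparison of IVP and IVV membranes 0 of the 4 tested blood surface genes were called, so GYPC had no call there.

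The genes most like the members over the 16 discs were ranked by Pearson's r with the mean standardized log2 CPM of the 9 tested members. WNT5A, a secreted Wnt ligand, came first (r = 0.96), followed by FOXF1 (0.96), ZNF516 (0.95), PLAT (0.94), PRKD1 (0.94), LIFR (0.94), NPNT (0.93), S1PR3 (0.93), CDH11 (0.93) and ID4 (0.93). These values describe 16 libraries in which the procedures also differ. Within the 9 IVV discs alone r ran from 0.77 for S1PR3 to 0.97 for CDH11 and FOXF1. FOXF1 averaged 0.292 CPM in IVP and 3.85 CPM in IVV discs, and WNT5A 0.776 and 6.17 CPM.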

How the data were processed

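RNA was measured in 30 poly(A)-selected, non-stranded libraries from day 15 bovine embryos, each library being the ED or a piece of EEM of a single embryo. Per the labels and the study's methods, the authors cleaned the read pairs (SOAPnuke), mapped to ARS-UCD1.3 with STAR 2.7.0b and deposited raw counts per Entrez gene ID from featureCounts (Subread 2.0.3), with no normalization or pooling. Small even counts outnumbered small odd ones (19289 entries held 2 counts and 15257 held 1), and whether mates were counted singly is not given in the sources used here. Library totals ran from 48713218 to 63037371.

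Symbols came from RefSeq (ARS-UCD2.0) by gene ID, naming 31630 of 35092 IDs. No position is printed, since the builds differ. The members and all gene lists were chosen with earlier results of these data known. Counts were scaled to library size (CPM) with TMM factors over all 30 libraries, and log2 CPM a prior count of 2. Tests used edgeR 4.0.16 in R 4.3.3 (filterByExpr at 10 counts, quasi-likelihood test, Benjamini-Hochberg adjustment over all genes tested, threshold 0.05). The SE of an edgeR value was worked back from the test, as the absolute log2 fold change over the square root of its F statistic. IVP and IVV were compared within each tissue with 1 surrogate variable from svaseq (sva 3.50.0). ED and EEM were compared in 1 fit over the 13 embryos that gave both, with embryo as the block. The titles name the embryo of each library. Across 15007 genes, the deviations of both tissues from their group means correlated within an embryo at a median of 0.47, over 0.1 in 12 of 13 embryos and at -0.23 in IVPF13. Correlations among the 9 IVV discs had two-sided exact permutation tests, and those of VEGFA over all embryos of a tissue permutation tests with 100000 resamples. Members were set down as fold changes without p in the disc comparison of IVP and IVV, the one they were proposed from, and between the tissues, which share its discs.

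A gene with at most 3 counts in every library of a group was taken to be at the floor. Folds against such a group divide the mean CPM of the other group by the mean CPM that 3 counts would give. They are lower bounds for the group mean and not for each library. Floors cover counting error only. The named genes were the 10 members, up to 5 called genes per list, comparison and direction in order of p, and 20 list genes named whatever their result. XIST, the pairs of members and the VEGFA relation to oxygen genes were chosen after values were seen. Alternatives were DESeq2 1.42.0, limma 3.58.1 voom, other normalization, filters, halved counts, covariates, subsets of embryos and each embryo left out. The scripts were tested on simulated data. Methylation data were not analysed here.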

Additional observations from a re-analysis of the deposited data

Results flagged for a closer look

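Of 115 sets of 1 gene in 1 group that were tested for a value far from the rest, 22 had such a value, where chance gives about 1 in 20 for sets of spread values. In 8 of the 22 a single library was above 0, which meets the criterion by construction. In IVV discs VE19 was the lowest for FLI1 (0.121 CPM), KDR (0.706 CPM), APLNR (0.202 CPM) and PECAM1 (0.646 CPM), and VE5 for APELA (1.04 CPM). In IVV membranes VE19 was the lowest for KIT (11.8 CPM) and HIF1A (0.0641 CPM), and VE4 for HHEX (2.40 CPM). In IVP discs IVP10 was the lowest for KDR (0 CPM) and NRP1 (0.444 CPM), IVPF10 for PECAM1 (1.36 CPM) and IVP11 for HIF1A (1.27 CPM). In IVP membranes IVPF14 was the lowest for VEGFA (3.63 CPM) and MESP1 (0 CPM).

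The other 8 were single high values in sets otherwise at 0. CDH5 was 0.128 CPM (8 counts) in the disc of IVP14 and 0.0362 CPM in its membranes. APLNR was 0.0815 CPM (4 counts) and FLI1 0.0408 CPM in the membranes of IVP10, and CD34 was 0.0389 CPM in the membranes of VE5. CD34, ERG and GATA1 were each 0.0193 CPM (1 count) in the disc of IVPF14.

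The tissue effect differed between the procedures for 4 list genes by the interaction test in edgeR with Benjamini-Hochberg adjustment. On the log2 scale, IVP minus IVV, NRP1 was at -3.62 (adjusted p = 0.000475), GYPC at -8.53 (adjusted p = 0.000151), MIXL1 at -2.45 (adjusted p = 0.00744) and TBX6 at -2.51 (adjusted p = 0.0166). GYPC held 0 to 2 counts in IVV membranes, so its value depends on the prior count and is no bound. In IVP membranes it was at least 28.3-fold higher by the group mean (1.66 CPM), though it had no call in the comparison of IVP and IVV membranes.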

How the results depend on the processing

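Of 3505 single-gene values under an alternative, 3293 kept their side of the threshold. For members in the discs this meant the same direction and a move of less than 1 SD. Of the rest, 186 lost and 21 gained a call, 3 moved by over 1 SD and 2 reversed. A change of sign in any other gene with no call was not counted as reversed, as for APELA in the discs (-1.26 to 0.015 over the alternatives). The members called lower in IVP discs, a count from which nothing is read, were 4 with a filter of 50 counts and 6 with DESeq2. Those called higher in IVV discs than membranes were 6 with DESeq2 and 7 with each embryo left out. For IVP against IVV in the discs, all genes called were 1512 with DESeq2, 1846 with no filter on low counts, 482 with a filter of 50 counts, 654 with XIST as a covariate, and 639 (without VE29) to 1160 with 1 library left out. List genes called lower were 9 with XIST (11 to 16 with 1 library left out). List genes called higher were 5 with DESeq2, 1 with limma voom, with the filter of 50 and with the last letter of the sample titles as a covariate (the title letter), 0 with XIST, and 1 to 4 with 1 library left out (1 without IVP11, IVP14, IVPF14, VE28, VE3 or VE6). VEGFA turned from -0.18 to 0.063 without IVPF13 and 0.086 without IVPF14, and ran from -0.67 (without IVP11) to 0.086 with 1 library left out.

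In the membranes, all genes called were 1211 with no filter, 292 with the filter of 50, 145 with XIST, and 426 to 729 with 1 library left out. List genes called lower were 3 with limma voom, 2 with the filter of 50, halved counts, the title letter and the 13 embryos with both tissues, 1 with XIST, and 2 to 5 with 1 library left out (2 or 3 without IVP10, IVP11, IVPF9, VE24, VE26, VE28, VE29 or VE5). Those called higher were 2 with the filter of 50 and with XIST, and 4 to 7 with 1 left out (7 without IVP10). Fewer genes are tested under the filter of 50 and fewer embryos in the subset; otherwise the cause was not tested.

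Without the replicate block (embryo), genes called between IVV discs and membranes were 2268 in place of 3711 (2626 to 4125 with 1 embryo left out), with 25 to 31 list genes higher. In IVP embryos the members called higher were 0 without the block, 2 with no filter and with halved counts, and 0 to 2 with 1 embryo left out (0 without IVP14, IVPF13, IVPF14, VE28, VE29 or VE4, and 2 without VE19). List genes called higher there were 7 without the block and 4 to 11 with 1 embryo left out (7 without IVP10, 4 without IVP14, 6 without IVPF13), and all genes called were 473 (without IVP14) to 851. Depth limits CDH5, ERG and GATA1, which held too few counts for a test in the discs, and 8 members in the membranes.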
